A study of Mus musculus with 56 samples.

Results

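The FGF homologous factors are the 4 genes Fgf11, Fgf12, Fgf13 and Fgf14, and they were studied with Nalcn, the gene of the sodium leak channel. These 5 genes were taken by symbol from the 18088 genes of a normalized expression table of the mouse prefrontal cortex. All 5 were found there, and all 5 passed the filter on low values. The table covers 56 C57BL/6J mice that were heterozygous for Scn2a (HT, n = 29) or wild type (WT, n = 27). The product of Scn2a is NaV1.2, which carries sodium currents in neurons. The pups had received fluoxetine, an antidepressant that blocks serotonin reuptake, lithium, which stabilises mood and blocks the kinase GSK3, or vehicle in their mother's milk. Dosing ran for 3 weeks, between postnatal days 3 and 24, and tissue was collected on day 25 from both sexes.

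The groups were HT mice on fluoxetine (n = 9), lithium (n = 10) or vehicle (n = 10) and WT mice on fluoxetine, lithium or vehicle (n = 9 each). Each was made of 5 females and 5 males, except for 4 females in the HT fluoxetine, WT fluoxetine and WT lithium groups and 4 males in the WT vehicle group. Neither the litter nor the dam of a pup is labelled, so p-values measure the spread between pups that may have shared a mother, and those of drug effects can then be too small. Scn2a was 7583 to 9619 in HT libraries and 9727 to 13381 in WT libraries, so no library went against its genotype label. Depth was 24253955 to 36385936 reads per library. Markers of cortical excitatory neurons were present in each library, but 18 of the 56 also carried raised markers of olfactory bulb or striatum. In these 18 the mean log2 deviation of either marker list from the median library was above 1. They were found in every one of the 6 groups, and results are given with and without them where they differ. Scores lay close to this limit on both sides. WT vehicle female 2 was among the 18 with a striatal score of 1.01. The other 38, called libraries with low scores or without raised markers below, reached an olfactory bulb score of 0.91 (WT vehicle male 3). In bulk tissue, fewer cells of a type and less RNA per cell cannot be told apart.

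FGF homologous factors belong by sequence to the fibroblast growth factors. They lack the signal peptide that most of their secreted relatives carry, and they stay inside the cell. There they bind the C-terminal tail of voltage-gated sodium channels, change how fast the channels inactivate, and take part in placing them at the axon initial segment, where action potentials start. FGF14 is concentrated at that segment and is mutated in a hereditary human ataxia. FGF12 variants cause a human epileptic encephalopathy, and FGF13, whose gene is on the X chromosome, also binds microtubules. FGF11 is the least studied of the family. NALCN is a channel related in sequence to sodium and calcium channels that carries a resting sodium leak and works in a complex with UNC79, UNC80 and FAM155A.

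On GRCm38, in the GENCODE vM21 annotation, all 5 genes are protein coding and lie on the minus strand. Fgf11 is a compact gene of 5.8 kb on chromosome 11 (69796068 to 69801857). Fgf12 spans 593.0 kb on chromosome 16 (28160098 to 28753068), and Fgf13 spans 505.9 kb on chromosome X (59062145 to 59568071). Nalcn (350.5 kb, 123276634 to 123627144) and Fgf14 (699.2 kb, 123977907 to 124677127) are neighbours on chromosome 14, separated by 350.8 kb. The protein-coding gene Itgbl1, on the other strand, lies between them.

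As described below, Fgf12, Fgf14 and Nalcn varied together from library to library. Fgf13 had correlations near 0 with Fgf12 and Nalcn, but r = 0.359 with Fgf14, close to the 0.383 of Fgf12 with Fgf14. Because of this partial contrast the start-site sequences of these 4 genes are shown, without Fgf11. Each is the 250 bases before a RefSeq transcript start (build GRCm38.p6), read 5′ to 3′ on the minus strand. For each gene the listed start nearest to the GENCODE gene start was used. Capitals mark matches on either strand to a CCAAT box (CCAAT) or a GC box (GGGCGG). The search also covered the TATA box and the cAMP response element. In order, the windows are chr16:28753244-28753493, chrX:59567349-59567598, chr14:124192547-124192796 and chr14:123627145-123627394.
Fgf12: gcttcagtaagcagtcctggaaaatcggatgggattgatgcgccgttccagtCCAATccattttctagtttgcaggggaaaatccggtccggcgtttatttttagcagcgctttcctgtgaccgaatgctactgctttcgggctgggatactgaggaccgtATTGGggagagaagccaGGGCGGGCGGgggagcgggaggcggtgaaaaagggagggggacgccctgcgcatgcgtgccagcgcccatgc
Fgf13: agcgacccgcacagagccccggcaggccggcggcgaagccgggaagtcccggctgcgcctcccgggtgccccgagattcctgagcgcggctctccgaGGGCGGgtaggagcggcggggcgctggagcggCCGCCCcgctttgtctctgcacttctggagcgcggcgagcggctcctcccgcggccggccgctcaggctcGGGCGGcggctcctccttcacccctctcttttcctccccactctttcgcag
Fgf14: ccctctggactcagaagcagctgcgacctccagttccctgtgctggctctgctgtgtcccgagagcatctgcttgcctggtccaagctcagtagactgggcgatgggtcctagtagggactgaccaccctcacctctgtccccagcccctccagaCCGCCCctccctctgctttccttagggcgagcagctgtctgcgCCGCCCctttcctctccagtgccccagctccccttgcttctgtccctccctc
Nalcn: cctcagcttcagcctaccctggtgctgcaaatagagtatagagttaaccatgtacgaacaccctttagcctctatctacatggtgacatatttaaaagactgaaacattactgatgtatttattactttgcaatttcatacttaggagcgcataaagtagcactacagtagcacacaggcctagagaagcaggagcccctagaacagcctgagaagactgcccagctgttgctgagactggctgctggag
The Fgf13 window had a GC content of 74.8% and 33 CpG pairs, and the Fgf12 window had 58.4% and 18. The Fgf14 window had 64.0% with only 7 CpG pairs, and the Nalcn window had 45.2% with 2. Over 32851 windows of the same length the median was 52.4% GC and 6 CpG pairs. GC boxes were found 3 times in the Fgf13 window and 2 times each in those of Fgf12, where the pair overlap, and Fgf14. At least 1 GC box was present in 32.7% of all windows. CCAAT boxes were found 2 times in the Fgf12 window and in none of the other 3, against 33.8% of all windows. The TATA box, as TATAAA (in 12.4% of all windows), and the cAMP response element, as TGACGTCA (in 1.5%), matched none of the 4. Nalcn, which co-varied with Fgf12 and Fgf14, matched no searched motif. Fgf12 and Fgf13 each have 4 listed starts, and the only start listed for Fgf14 lies 484.6 kb inside its GENCODE gene, so a window may not be the one used in cortex.

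Values are read counts divided by the library's size factor, called normalized counts here. Fgf12 averaged 4392 ± 330 over all libraries (SD, n = 56) and Fgf13 averaged 4004 ± 261. Nalcn averaged 3381 ± 235, Fgf14 averaged 1029 ± 89.0 and Fgf11 averaged 627.5 ± 56.8. Since long transcripts yield more fragments, levels between genes were compared per kilobase of the longest annotated coding transcript. On that scale Fgf13 was the highest at 1602 normalized counts per kb, ahead of Fgf12 at 1062, Nalcn at 475, Fgf14 at 285 and Fgf11 at 207. Each neighbouring pair stood in this order in 56 of 56 libraries. With the median transcript length in place of the longest, Fgf13 exceeded Fgf12 in 49 of 56 libraries and by a ratio of 1.13, and the other pairs kept their order in all 56.

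Fgf13 had its lowest mean in lithium-treated HT mice, 3767 ± 246 (SD, n = 10). Its lowest, median and highest normalized counts were 3535, 4155 and 4455 in HT fluoxetine mice and 3380.4, 3770 and 4186 in HT lithium mice, against 3786, 4023 and 4284 in HT vehicle mice. In WT mice they were 3779, 4129 and 4651 under fluoxetine and 3561, 3996 and 4242 under lithium, against 3502, 4149.5 and 4301 under vehicle. The ranges of all 6 groups overlapped.

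Fgf12 had 4095, 4649 and 4900.2 in HT fluoxetine mice and 3624, 4289 and 4562 in HT lithium mice, against 3740, 4314 and 5091 in HT vehicle mice. In WT mice Fgf12 had 4167, 4518 and 5519 under fluoxetine and 3985, 4349 and 4543 under lithium, against 3795, 4300 and 4657 under vehicle. The median was highest under fluoxetine in both genotypes, with overlapping ranges.

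Fgf14 had 928, 1041 and 1245 in HT fluoxetine mice and 839, 1026 and 1108 in HT lithium mice, against 892, 1014 and 1142 in HT vehicle mice. In WT mice Fgf14 had 924, 1011 and 1177 under fluoxetine and 998, 1064 and 1167 under lithium, against 828, 1032 and 1173 under vehicle. Its 6 medians thus lay close together, and no group stood outside the others.

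Fgf11 had 511.5, 602 and 747 in HT fluoxetine mice and 568, 639.8 and 763 in HT lithium mice, against 519, 625 and 682 in HT vehicle mice. In WT mice Fgf11 had 548, 633 and 738 under fluoxetine and 584, 639 and 673 under lithium, against 552, 590.3 and 691 under vehicle. The spread within a group was wide next to the differences between medians.

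Nalcn had 3199, 3460.2 and 3666 in HT fluoxetine mice and 3068, 3355 and 3735 in HT lithium mice, against 2919, 3214 and 3784 in HT vehicle mice. In WT mice Nalcn had 3029, 3491 and 3839 under fluoxetine and 3222, 3420.0 and 3706 under lithium, against 2989, 3278 and 3737 under vehicle. Both drugs had higher medians than vehicle in both genotypes, but the ranges overlapped throughout. Libraries above the vehicle mean of their sex were 6 of 9 for HT fluoxetine and 4 of 10 for HT lithium. In WT mice they were 5 of 9 under each drug.

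**Figure D1:**
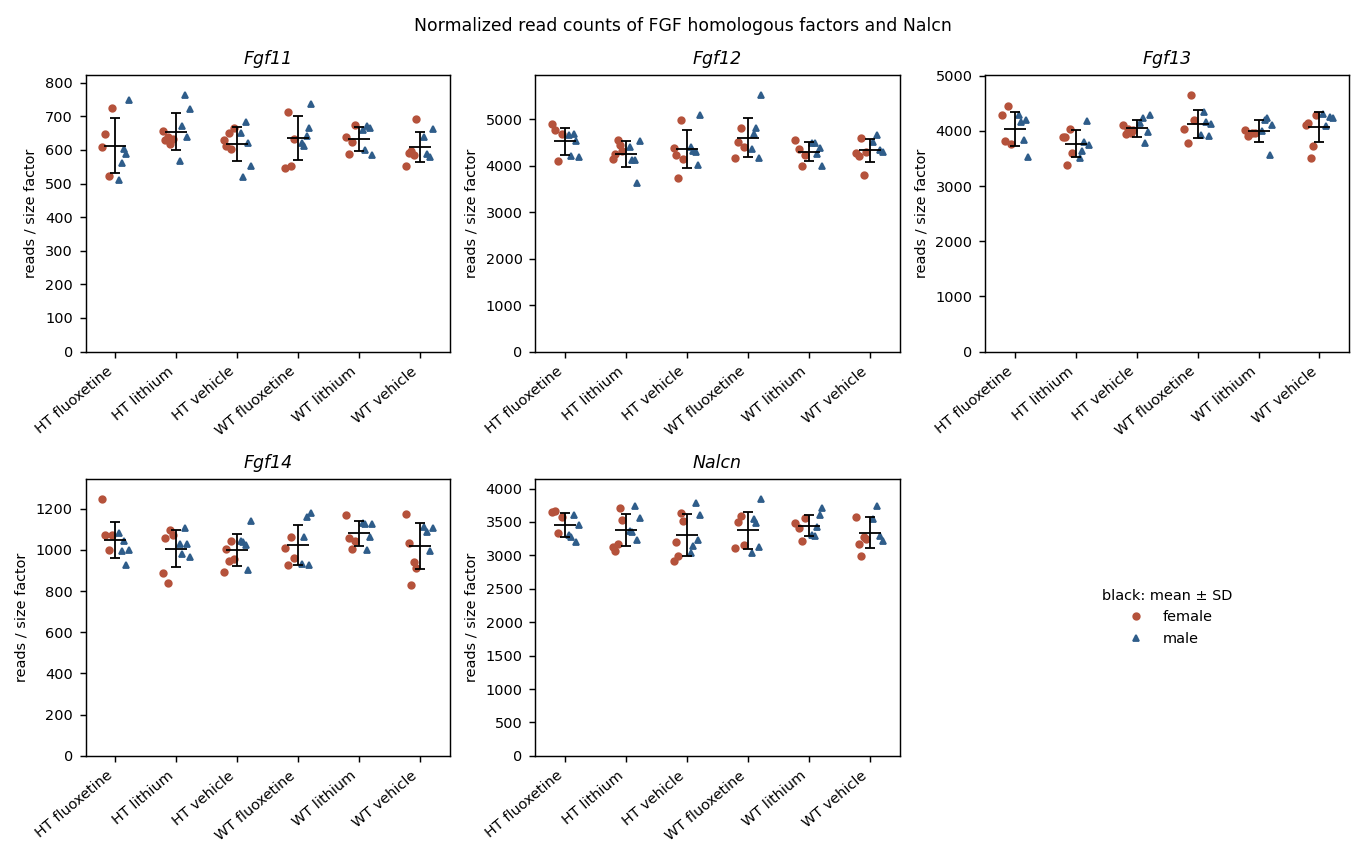
Normalized counts (reads divided by size factor, y axis from 0) of Fgf11, Fgf12, Fgf13, Fgf14 and Nalcn in the 6 groups of genotype and treatment. Each circle is a female and each triangle a male, with the mean and SD in black. The groups overlap for each gene, and the HT lithium group has the lowest mean Fgf13 (3767, against 4047 in HT vehicle).

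Drug and genotype effects were tested with limma on log2(normalized count + 1) over 17778 genes, averaged over the sexes, and calls were made where the p adjusted by Benjamini and Hochberg's method was below 0.05. None of the 5 genes was called in any of the 11 comparisons. Of these 55 tests, 2 had an unadjusted p below 0.05, both for Fgf13. The genes called among all tested made up 0.045% for fluoxetine in HT mice, 0.146% for fluoxetine in WT mice, 8.77% for lithium in HT mice and 5.71% for lithium in WT mice. For HT against WT they made up 0.00562% under vehicle, 0.0112% under fluoxetine, 0.0337% under lithium and 0.152% averaged over the treatments. They were 0% for both genotype by drug interactions and 0.197% for females against males. Only under lithium was a call common in the table as a whole. edgeR and DESeq2 on the recovered reads, and limma with voom, each called none of the 55 either, with 1 unadjusted p below 0.05 apiece.

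Across the 7 drug and genotype effects within a single genotype or treatment, the estimates for the 5 genes ran from -0.105 to 0.081 on the log2 scale, which is a change of -7.03% to 5.8%. Their standard errors were 0.040 to 0.062, and the outermost bounds of their 95% confidence intervals were -13.85% and 14.78%. A change of up to these sizes is therefore not excluded by the intervals. For Scn2a heterozygosity averaged over the treatments the intervals were narrower, with bounds of -6.41% and 5.35% for HT against WT mice. In comparison, Scn2a itself was lower in HT mice, by a change of -30.5% (log2 change -0.526 ± 0.021 SE, limma adjusted p = 3.73e-25). The members' residual SD on the log2 scale was 0.092 for Fgf13, 0.104 for Nalcn, 0.106 for Fgf12, 0.123 for Fgf14 and 0.135 for Fgf11. The median for genes with means of 500 to 5000 normalized counts, a range that holds all 5, was 0.085, so all 5 varied more than that median. Over all tested genes the median was 0.1343, and the members stood between percentiles 30.5 (Fgf13) and 50.1 (Fgf11) of residual SD.

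**Figure D2:**
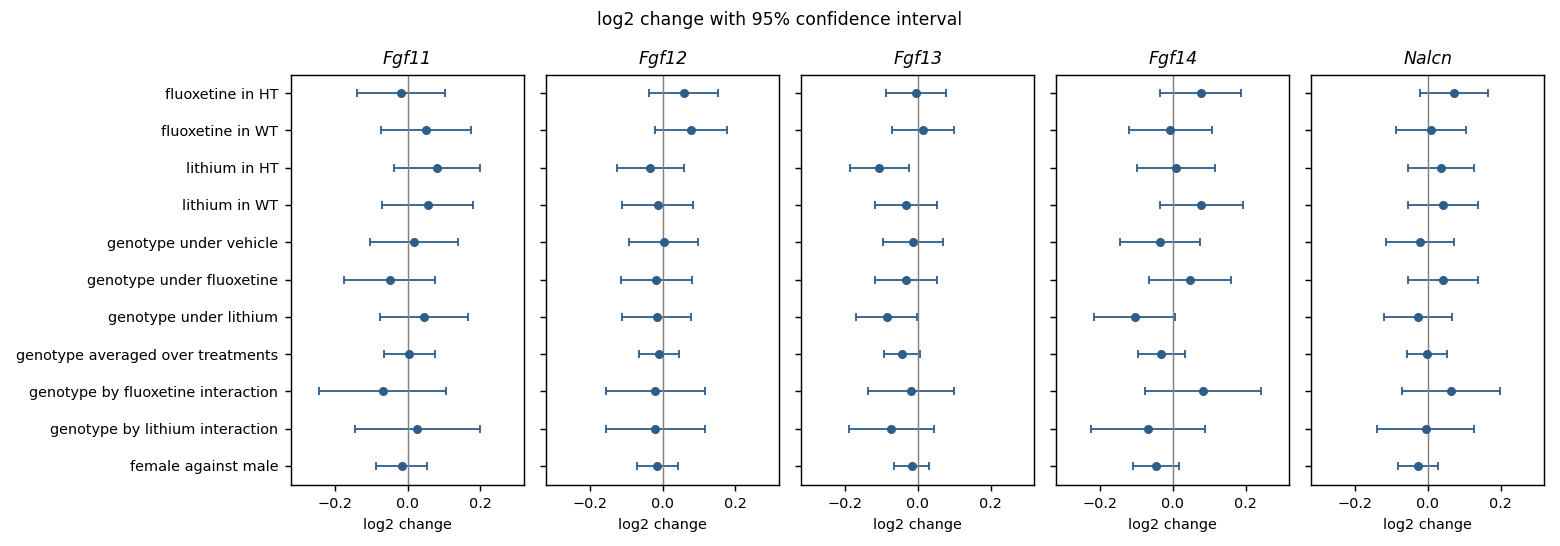
Log2 change of each gene in the 11 comparisons (rows), as the estimate (point) and 95% confidence interval (bar) from limma, with 0 as a grey line. Drug effects are drug minus vehicle, genotype effects HT minus WT, interactions the drug effect in HT minus that in WT, and the last row female minus male. Only the intervals of Fgf13 for lithium in HT (-0.105) and for genotype under lithium (-0.085) lie wholly to a side of 0, and neither passed the adjustment over all genes.

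The lithium comparison in HT mice gave the smallest p-value of any member. In HT lithium females Fgf13 was 3886, 3892, 3380.4, 4041 and 3596 normalized counts, against 4099, 3938, 4027, 3959 and 4019 in HT vehicle females. In HT lithium males it was 3505, 3643, 3797, 4186 and 3743, against 4142, 4238, 3786, 3973 and 4284 in HT vehicle males. Of the 10 lithium libraries, 8 were below the vehicle mean of their own sex, and the ranges overlapped in both sexes. The log2 change was -0.105 ± 0.040 (SE), or -7.03% with a 95% confidence interval of -12.08% to -1.69%. This did not pass the threshold over all genes (limma, unadjusted p = 0.0115, adjusted p = 0.0897). In WT mice the estimate was -0.033 ± 0.043 (adjusted p = 0.705), and the interaction, -0.072 ± 0.058, was not called (adjusted p = 0.656). Under lithium, Fgf13 differed by -5.73% between HT and WT mice (log2 change -0.085 ± 0.041, adjusted p = 0.474). The olfactory bulb marker score was 0.88 higher in HT than in WT mice under lithium, with 11 of its 11 markers higher, 3 of them at an unadjusted p below 0.05 and none called. Their summed normalized count was 4089 to 20015 in HT lithium mice, against 4044 to 8864 in WT lithium mice. The interaction estimate of that score was 0.74. With both neighbouring-region scores as covariates, no member, Fgf13 included, had an unadjusted limma p below 0.05 for genotype under lithium. The same held without the 18 libraries, but also with TMM scaling, voom, edgeR and DESeq2. Beyond these fits the part of the markers in both Fgf13 estimates was not tested. The lithium, genotype and interaction comparisons of Fgf13 share the HT lithium libraries and are not independent.

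The 4 lowest Fgf13 values of the HT lithium group came from libraries with raised markers of neighbouring regions. Females 3 and 5 and male 1 had olfactory bulb scores of 2.21, 1.25 and 1.59, and male 2 had a striatal score of 1.62. Female 3, with the highest olfactory score of the group, had the lowest Fgf13. The HT vehicle group also held 4 such libraries. Of the 11 olfactory bulb markers, none was at 0 throughout, and their sum was 4089 to 20015 in HT lithium mice, against 4122 to 12658 in HT vehicle mice. The mean score was 0.122 higher under lithium, 9 of the 11 markers were higher and none was called. The 10 striatal markers summed to 7276 to 18858 in HT lithium mice, against 6602 to 28215 in HT vehicle mice, with a mean score lower by 0.121, and none of these was called. With both scores as covariates the Fgf13 change was -0.104 and was called (limma adjusted p = 0.0115). Without the 18 libraries of scores above 1 it was -0.053 and was not called (adjusted p = 0.491). With length and GC slopes it was -0.073 (adjusted p = 0.435). Leaving out single libraries gave -0.124 to -0.086. The smallest adjusted p, 0.0452, came without HT lithium male 4, the highest of the group, and was the only one of the 56 below the threshold. The largest, 0.194, came without HT lithium female 3. Markers of astrocytes, microglia and endothelial cells in this comparison are given with the NALCN complex.

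The remaining members showed smaller or less certain differences. Under fluoxetine, Fgf12 was higher by 0.058 ± 0.047 on the log2 scale in HT mice and by 0.078 ± 0.049 in WT mice (limma adjusted p = 0.757 and 0.585). Nalcn was higher under fluoxetine by 0.071 ± 0.047 in HT mice and by 0.008 ± 0.048 in WT mice (adjusted p = 0.696 and 0.971). The interval for Nalcn in HT mice ran between -1.57% and 12.11%. Fgf11 had its largest estimate under lithium in HT mice, 0.081 ± 0.059 (adjusted p = 0.422), and with slopes on transcript length and GC content as covariates it was -0.002. Fgf14 had its largest estimate for genotype under lithium, -0.105 ± 0.055 (adjusted p = 0.511), with 1006 ± 88.9 normalized counts in HT lithium mice and 1080.4 ± 60.1 in WT lithium mice. Under vehicle the 5 genotype estimates lay between -0.036 and 0.019, with adjusted p from 0.882 upward.

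All 5 genes had lower estimates in females than in males, between -0.046 for Fgf14 and -0.014 for Fgf12, and none was called (smallest limma adjusted p = 0.872). X-linked Fgf13 differed by -1.12% in females against males, with an interval of -4.38% to 2.25%. Drug and genotype effects were also tested in each sex and as the difference between the sexes, which gave 50 tests per family and no call. The percentage of all genes called was 0% for each test of a difference between the sexes. For lithium it was 0.99% in HT females, 0.546% in HT males, 0.799% in WT females and 0.208% in WT males. For fluoxetine it was 0.0169% in WT females and 0% in WT males and in HT mice of either sex. For genotype averaged over treatments it was 0.0112% in females and 0.0281% in males, and under a single treatment 0.00562% in each sex. An unadjusted p below 0.05 occurred 1 time in females and 1 time in males. The female case was Fgf14 under fluoxetine in HT mice. There it was 1245, 1073, 1001 and 1072 normalized counts in fluoxetine females, against 892, 1004, 944, 1041 and 956 in vehicle females. Of these 4 fluoxetine females, 3 exceeded all 5 vehicle females. Among these 3 were fluoxetine females 2 and 4, which had olfactory bulb scores of 1.42 and 1.61. Vehicle females 1 and 4 had olfactory bulb scores of 1.48 and 1.35, and vehicle female 3 had a striatal score of 2.30. Without libraries of scores above 1, fluoxetine females at 1245 and 1001 and vehicle females at 1004 and 956 were left. The change in females without those libraries was not tested. With all libraries, females showed a log2 change of 0.180 ± 0.080 (adjusted p = 0.427). Males showed one of -0.027 ± 0.075 (adjusted p = 0.999). The difference between the sexes was 0.207 ± 0.11 and was not called (adjusted p = 0.818). The male case was Fgf13 under lithium in HT mice (-0.115 ± 0.057, adjusted p = 0.382), where the estimate in females was -0.095 ± 0.057.

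With the group means removed, 3 of the 5 genes varied together from mouse to mouse. The pairs were Fgf14 with Nalcn, Fgf12 with Nalcn and Fgf12 with Fgf14, so the leak channel gene tracked 2 of the FGF homologous factors. Of the 10 pairs of members, 5 passed Benjamini-Hochberg adjustment over the 10 pairs in permutation tests that shuffled libraries within groups (100000 draws, two-sided, n = 56 libraries). The share of other gene pairs that would pass was not measured, and percentiles of r among other genes are given with the positive pairs. Fgf14 and Nalcn had the closest relation, with Pearson r = 0.557 (permutation p = 0.00023, adjusted p = 0.0023) and Spearman rho = 0.514 (permutation p = 6e-04, adjusted p = 0.006). Their r was 0.53 without the 2 libraries farthest from the median and 0.527 in the 38 libraries without raised neighbouring-region markers. Among all genes compared with Nalcn, Fgf14 stood at percentile 94.4 of r, so many genes tracked Nalcn more closely.

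Fgf12 and Nalcn had r = 0.467 (permutation p = 0.0028, adjusted p = 0.014) and rho = 0.416 (permutation p = 0.0055, adjusted p = 0.027). Without the 2 farthest libraries r was 0.363, and in the 38 libraries it was 0.666. Fgf12 and Fgf14 had r = 0.383 (permutation p = 0.0098, adjusted p = 0.033) and rho = 0.388 (permutation p = 0.008, adjusted p = 0.027), with 0.312 and 0.603 in the same subsets. Both relations were thus closer in the libraries with low neighbouring-region scores. Fgf13 had r = -0.026 with Fgf12 and -0.033 with Nalcn (permutation p = 0.85 and 0.81, adjusted p = 0.88 for both). With Fgf14 it had r = 0.359 (permutation p = 0.023, adjusted p = 0.046), close to the 0.383 of Fgf12 with Fgf14, while its rho of 0.323 did not pass (permutation p = 0.038, adjusted p = 0.075). Without the 2 farthest libraries that r was 0.376, and in the 38 libraries it was 0.209. Among all genes compared with Fgf14, Fgf12 stood at percentile 86.7 of r and Fgf13 at 85.2, and Fgf12 stood at percentile 90.1 among those compared with Nalcn. Fgf11 and Fgf13 moved in opposite directions, with r = -0.403 (permutation p = 0.015, adjusted p = 0.038) and rho = -0.368 (permutation p = 0.018, adjusted p = 0.045), and r was -0.277 in the 38 libraries. Itgbl1, the gene between Nalcn and Fgf14, was at 96.8 normalized counts and was looked at after these values were seen. Its r was -0.191 with Fgf14 and -0.403 with Nalcn, so it did not vary with its neighbours in the same direction.

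**Figure D3:**
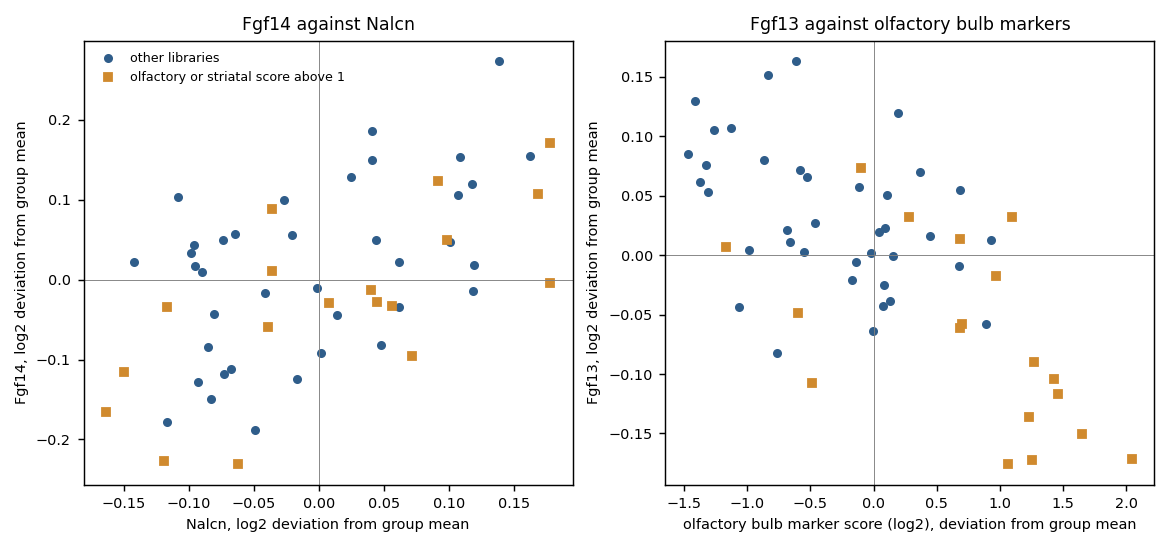
Left, log2 deviation of Fgf14 from its group mean (y axis) against that of Nalcn (x axis) in 56 libraries. Right, log2 deviation of Fgf13 (y axis) against the deviation of the olfactory bulb marker score (x axis). Squares are the 18 libraries with an olfactory or striatal score above 1 and circles the other 38. Fgf14 goes up with Nalcn among both kinds of library (r = 0.557), and Fgf13 goes down as the olfactory score goes up (r = -0.657).

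The members also differed in the cell type markers they varied with. Each was compared with 8 marker scores, giving 40 relations tested by the same permutations and adjusted together. Nalcn was inversely related to the scores of endothelial cells (r = -0.689, rho = -0.643, permutation p = 1e-05 and 3e-05, adjusted p = 2e-04 and 6e-04) and microglia (r = -0.65, rho = -0.656, permutation p = 1e-05 for both, the smallest that 100000 draws can give, adjusted p = 2e-04 and 4e-04). It was also inversely related to the astrocyte score (r = -0.575, rho = -0.506, permutation p = 0.00035 and 0.0011, adjusted p = 0.0023 and 0.0064). Without the 2 libraries farthest in each score these r were -0.641, -0.658 and -0.526. Nalcn and Fgf14 both went with the excitatory neuron score, Nalcn with r = 0.494 and rho = 0.474 (permutation p = 0.0024 and 0.0023, adjusted p = 0.012 and 0.01) and Fgf14 with r = 0.577 and rho = 0.558 (permutation p = 0.00027 and 0.00018, adjusted p = 0.0022 and 0.0019). Without the 2 farthest libraries these r were 0.469 and 0.474. With the inhibitory neuron score neither passed, with r = 0.069 for Nalcn and -0.085 for Fgf14 (permutation p = 0.67 and 0.59, adjusted p = 0.74 and 0.69). Nalcn and Fgf14 thus shared a relation to excitatory neuron markers, but it was not particular to them. Fgf13 had it too (r = 0.517), with r = -0.033 to Nalcn. Fgf12, which varied with both Nalcn and Fgf14, had r = 0.038 with that score (permutation p = 0.83, adjusted p = 0.87). The part of these markers in the correlation of Nalcn with Fgf14 was not tested.

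How many of these scores other genes pass with was not counted, so the following counts cannot be set against the table as a whole. By Pearson's r Nalcn passed with 4 of the 8 scores and Fgf13 with 6. It was lower where the olfactory bulb score was higher (r = -0.657, rho = -0.595, permutation p = 3e-05 and 0.00019, adjusted p = 4e-04 and 0.0019), with r = -0.595 without the 2 farthest libraries and -0.313 in the 38 libraries. It was also lower where the striatal score was higher (r = -0.397, rho = -0.42, permutation p = 0.0036 and 0.0018, adjusted p = 0.015 and 0.0088), with r = -0.554 in the 38 libraries. With the excitatory neuron score Fgf13 had r = 0.517 and rho = 0.46 (permutation p = 6e-05 and 0.0011, adjusted p = 6e-04 and 0.0064), and r was 0.406 without the 2 farthest libraries. Fgf13 was higher where the microglia score was higher (r = 0.465, rho = 0.484, permutation p = 0.00095 and 0.00062, adjusted p = 0.0054 and 0.005), the opposite sign to Nalcn, with r = 0.474 without the 2 farthest libraries and 0.346 in the 38. It was lower where the oligodendrocyte score was higher (r = -0.357, rho = -0.387, permutation p = 0.012 and 0.0066, adjusted p = 0.04 and 0.024), with -0.376 and -0.412 in the same subsets. With the inhibitory neuron score it had r = -0.393 (permutation p = 0.0045, adjusted p = 0.016), but rho = -0.336 did not pass (permutation p = 0.018, adjusted p = 0.052). That r was -0.4 without the 2 farthest libraries and 0.087 in the 38, so it did not hold in the libraries with low neighbouring-region scores. Fgf11 went with the oligodendrocyte score, with r = 0.42 and rho = 0.405 (permutation p = 0.0033 and 0.0059, adjusted p = 0.015 and 0.024) and r = 0.398 without the 2 farthest. Fgf12 was inversely related to the striatal score by rho (-0.368, permutation p = 0.0075, adjusted p = 0.025) but not by r (-0.39, permutation p = 0.018, adjusted p = 0.054). That r was -0.285 without the 2 farthest libraries and -0.201 in the 38, and Fgf12 passed with no other score.

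The genes whose within-group pattern was most like each member were ranked over 12820 genes with a mean of at least 50 normalized counts, as a description with no test. Nalcn was most like Hspa4l, a heat shock protein family member (r = 0.88 over 56 libraries), followed by Tcaf1, which binds TRP channels (0.862), and Gcc2, a golgin of the trans-Golgi network (0.85). Fgf14 was most like Opa1, which fuses inner mitochondrial membranes (0.873), then Plcb1, a phospholipase C (0.837), and Frmpd4, a postsynaptic scaffold (0.831). Fgf12 was most like Hdgfl3 (0.828), Scamp1, a secretory carrier membrane protein (0.817), and Fyttd1, which takes part in mRNA export (0.814).

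Fgf13 was most like Camk2n1, an inhibitor of CaM kinase II (0.858), and Camk2a, a subunit of that kinase (0.851), followed by Zfp365 (0.832). Those 3 values dropped to 0.633, 0.533 and 0.634 in the 38 libraries with low neighbouring-region scores. Camk2a was also in the list of excitatory neuron markers. Fgf11 was most like Htr2c, a serotonin receptor (0.768), Nrp2, a semaphorin receptor (0.746), and Klhl13 (0.742). The values for Fgf11, Fgf12, Fgf14 and Nalcn were 0.688 to 0.89 in the 38 libraries.

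Lists of partners were then examined, fixed with earlier results of these data known. In the NALCN complex, Unc79 and Unc80, which encode large subunits needed for channel function, were both called higher in lithium-treated HT mice while Nalcn itself was not called. They were 2 of the 3 partners tested, and 8.77% of all genes were called in this comparison. In HT lithium females Unc79 was 2486, 2525, 2554, 2331 and 2446 normalized counts, against 2107, 2224, 2017, 2285 and 2324 in HT vehicle females. In HT lithium males it was 2589.7, 2459.6, 2753, 2472 and 2239.8, against 1988, 2202, 2433, 2439.9 and 2174 in HT vehicle males. All 5 lithium females exceeded all 5 vehicle females, and the males overlapped. The log2 change was 0.164 ± 0.042 (SE), or 12.07% higher (limma adjusted p = 0.00906), and 9 of 10 lithium libraries exceeded the vehicle mean of their sex. Unc79 averaged 2485.5 ± 140 in HT lithium mice (SD, n = 10) and 2486.3 ± 158 in HT fluoxetine mice (n = 9). HT vehicle mice had the lowest mean of the 6 groups, 2219.5 ± 156 (n = 10), against 2312 ± 140 in WT vehicle mice (n = 9). Under fluoxetine 9 of 9 HT libraries exceeded the vehicle mean of their sex, but Unc79 was not called. Both drug effects share the HT vehicle libraries.

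Unc80 was 8764, 9667, 9765, 10209 and 11310.1 in HT lithium females, against 9226, 9355, 8155, 8956 and 8730.2 in HT vehicle females. In HT lithium males it was 10249.9, 9686, 11725, 10187 and 9532, against 9615, 9654, 10124, 9362 and 9488 in HT vehicle males. The lowest lithium female lay within the vehicle range and the other 4 lay above it. The log2 change was 0.123 ± 0.040, or 8.92% higher (limma adjusted p = 0.0401), with 8 of 10 libraries above. Unc80 averaged 10109 ± 864 in HT lithium mice (SD, n = 10) and 9267 ± 547 in HT vehicle mice (n = 10), and in WT vehicle mice it averaged 10160.2 ± 476 (n = 9). Its genotype estimate under vehicle was -0.135 ± 0.041 and was not called (adjusted p = 0.247), and it shares the HT vehicle libraries with the lithium effect.

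In WT mice under lithium Unc79 was higher by 0.125 ± 0.044 (limma adjusted p = 0.0811) and Unc80 by 0.018 ± 0.042 (adjusted p = 0.854), and neither was called. The sign of that Unc80 estimate turned in 3 of 12 alternatives, which ran from -0.051 to 0.028. The interactions were not called (adjusted p = 0.838 and 0.493). Fam155a, the remaining complex gene in the table, named here to complete the list, was lower by 0.080 ± 0.033 in HT lithium mice (adjusted p = 0.13). Nalcn in the same comparison was 0.036 ± 0.045 (adjusted p = 0.69), with an interval of -3.77% to 9.18%. The calls of Unc79 and Unc80 were lost without the 18 libraries (changes of 0.140 and 0.104, adjusted p = 0.114 and 0.219) and with length and GC slopes as covariates, where Unc79 was 0.120 (adjusted p = 0.152) and Unc80 was 0.029 (adjusted p = 0.683). Unc79 kept its call when any single library was left out. Unc80 lost it in 12 of those 56 fits (adjusted p 0.05 to 0.119), namely without HT lithium females 4 or 5, HT lithium males 1, 3 or 4, HT vehicle females 3, 4 or 5, or HT vehicle males 1, 2, 4 or 5. Endothelial marker scores were 0.196 lower in HT lithium mice, with 3 of 6 markers called lower and 1 called higher. Their summed count was 4417 to 5794 in HT lithium mice, against 4989 to 6726 in HT vehicle mice, with no marker at 0. Of 7 astrocyte markers 6 were lower and 1 was called (S100b, limma adjusted p = 0.0227), with sums of 122294 to 135162 in HT lithium mice, against 111750.0 to 158674 in HT vehicle mice. All 6 microglia markers were lower and 1 was called (P2ry12, adjusted p = 0.0355), with sums of 7710.0 to 8938 in HT lithium mice, against 7915 to 10039 in HT vehicle mice. The part of these cell types in the values of Unc79, Unc80, Calm2 and Fgf13 was not tested.

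Among 13 kinases and binding partners of FGF homologous factors and sodium channels, 1 was called under lithium in HT mice, or 7.69% of them, against 8.77% of all genes. This was Calm2, which encodes calmodulin, a calcium sensor that binds the sodium channel tail next to the FGF homologous factor site. Calm2 had 36967 to 42012 normalized counts in HT lithium mice (mean 38551 ± 1747, SD, n = 10), against 37423 to 44940.1 in HT vehicle mice (mean 41129 ± 2183, n = 10). The ranges overlapped, and 9 of 10 lithium libraries were below the vehicle mean of their sex. Its log2 change was -0.093 ± 0.030 (limma adjusted p = 0.0397). Calm3, which encodes the same protein, was at -0.104 ± 0.037 and did not pass (adjusted p = 0.064). In WT vehicle mice Calm2 averaged 39738 ± 1862 (n = 9), below HT vehicle mice. Calm3 averaged 53395 ± 2469 in HT vehicle mice and 50992 ± 2034 in WT vehicle mice. For Calm2 9 of 10 HT vehicle libraries exceeded the WT vehicle mean of their sex, and for Calm3 8 of 10. Neither gene was called for genotype under vehicle, a comparison that shares the HT vehicle libraries with the lithium effect. In WT mice the log2 estimates under lithium were 0.004 for Calm2, whose sign turned in 6 of 12 alternatives, and 0.016 for Calm3, and neither interaction was called (adjusted p = 0.419 and 0.418). Without the 18 libraries Calm2 was -0.092 and was not called (adjusted p = 0.0611), nor was it with length and GC slopes (-0.055, adjusted p = 0.392). Calm2 lost its call in 11 of the 56 fits without a single library (adjusted p up to 0.0941), namely without HT lithium females 3 or 5, HT lithium males 1, 3 or 4, HT vehicle females 4 or 5, or HT vehicle males 1, 2, 3 or 4.

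**Figure D4:**
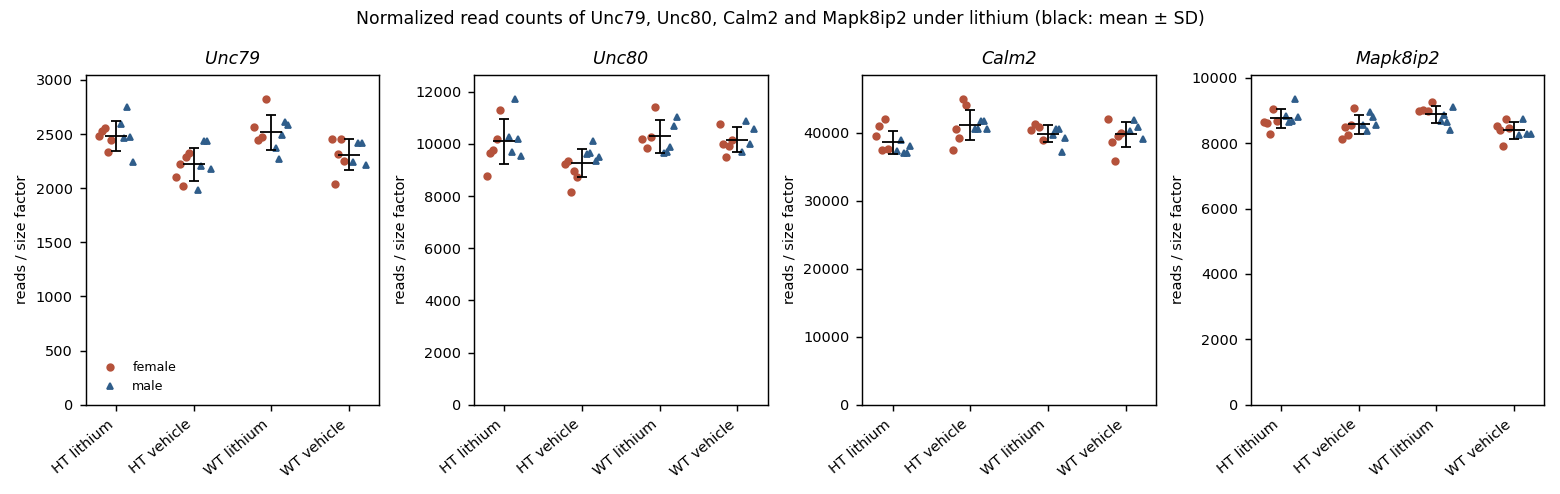
Normalized counts (reads divided by size factor, y axis from 0) of Unc79, Unc80, Calm2 and Mapk8ip2 in HT and WT mice on lithium or vehicle. Circles are females, triangles males, and black marks the mean and SD. In HT mice Unc79 and Unc80 are higher under lithium (2486 and 10109 on average, against 2220 and 9267 under vehicle), and Calm2 is lower (38551, against 41129). Mapk8ip2 is higher under lithium in WT mice (8887, against 8402 under vehicle).

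Mapk8ip2, which encodes the kinase scaffold islet-brain-2 that binds FGF homologous factors, was called higher under lithium in WT mice, the only one of the 13 there (7.69%, against 5.71% of all genes). It had 8404 to 9273 normalized counts in WT lithium mice, against 7928 to 8745 in WT vehicle mice, a log2 change of 0.084 ± 0.025 (limma adjusted p = 0.0329), with 9 of 9 lithium libraries above the vehicle mean of their sex. In HT mice the change was 0.030 ± 0.023 (adjusted p = 0.464). It was not called by edgeR on the recovered reads (adjusted p = 0.0515), with voom (0.0742), with the olfactory and striatal scores (0.0562) or length and GC slopes (0.102) as covariates, or without the 18 libraries (0.107). Its call was also lost without WT lithium female 4, WT lithium male 5, WT vehicle female 3 or WT vehicle males 1, 3 or 4 (adjusted p up to 0.0761). In the same comparison all 7 excitatory neuron markers were higher and 1 was called (Tbr1, limma adjusted p = 0.0222), with sums of 152664 to 178944 in WT lithium mice, against 141299 to 174739 in WT vehicle mice. All 6 microglia markers were lower, 1 of them called, and 2 of 6 endothelial markers were called lower. The olfactory bulb score differed by -0.618 and the striatal score by 0.298, with no marker of either called. Apart from the fits with the olfactory and striatal scores and without the 18 libraries, the part of these markers in the Mapk8ip2 result was not tested. Gsk3b, a kinase that lithium inhibits and that acts on the FGF14 and sodium channel complex, was higher by 0.091 ± 0.038 in HT mice and by 0.095 ± 0.040 in WT mice under lithium, and neither passed (adjusted p = 0.125 and 0.154). In all, 2 of the 143 tests of these 13 genes over the 11 comparisons were called, or 1.4%, against 1.37% of the tests of all genes, so their share was that of the table as a whole.

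Sodium channel subunit genes and axon initial segment genes were largely without calls. Among 8 sodium channel subunits, only Scn2a was called, lower in HT mice in each of the 4 genotype comparisons. Scn1a, the gene of NaV1.1, differed by -9.92% between HT and WT mice under vehicle (log2 change -0.151 ± 0.054), which did not pass (limma adjusted p = 0.323). None of 8 axon initial segment genes was called in any comparison. Ank3, which encodes the segment's main scaffold ankyrin-G, came closest, at 0.098 ± 0.033 under lithium in HT mice (adjusted p = 0.0551) and -0.089 ± 0.034 for genotype under vehicle (adjusted p = 0.363).

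The secreted relatives were mostly far below the intracellular factors. Of 18 secreted fibroblast growth factor genes listed, 12 were in the table and 11 passed the filter. Per kilobase of the longest coding transcript, Fgf1 was at 340 and Fgf9 at 122 normalized counts, and the other 10 were between 2.6 and 31.3. Fgf1 thus stood between Fgf14 (285) and Nalcn (475), while Fgf13 stood at 1602. The receptor genes Fgfr3, Fgfr1 and Fgfr2 were at 695, 395 and 248 per kb, and Fgfr4 was at 1.8. These genes were named after their levels were seen. None of the 11 secreted factors and 7 receptors or co-receptors was called in any of the 11 comparisons. Fgfrl1, a receptor without a kinase domain, had the smallest adjusted p of the receptors, at -0.186 ± 0.065 under lithium in HT mice (limma adjusted p = 0.0614).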

How the data were processed

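The submitters' processing notes name genome build GRCm38, Salmon 0.11.2, DESeq2 1.19.11 and R 3.6.0. The role of each is not given in the sources used here. TruSeq Stranded mRNA libraries were sequenced, per the labels' protocols. The table the authors deposited holds a signal, the reads of each gene divided by 1 size factor per library (0.818 to 1.227). Whole reads were recovered for 100.0% of values at a tolerance of 0.01. In 3 libraries the step was too near 1 for this to be tested. How reads shared by similar genes were assigned is not given in the sources used here, and Calm2 and Calm3 have close coding sequences. A gene of the partner list is not reported here.

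Genes with a value of at least 10 in at least 4 libraries were kept (17778, with 310 left out). limma 3.58.1 in R 4.3.3 was fitted to log2(value + 1) with 12 group means, trend and robust settings, and was checked on simulated data. edgeR 4.0.16 (quasi-likelihood) and DESeq2 1.42.0 on the recovered reads called 1579 and 1701 genes for lithium in HT mice, against 1560 by limma. Marker scores are mean log2 deviations from the median library. The text names the 5 members, genes of each list that were called or had the smallest p, and the 3 genes most like each member. Some genes are named outside this rule. Among them are Calm3 and Gsk3b under lithium, Fam155a, Itgbl1, and the secreted factors and receptors given by level. The members, lists, tests and alternatives were chosen with earlier results of these data known. Transcript lengths are those of GENCODE vM21, which may differ from the release the authors used.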

Additional observations from a re-analysis of the deposited data

How the results depend on the processing

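None of the 5 genes was called under TMM scaling, no filter, pseudocounts of 0.5 or 5, voom, only the groups compared, edgeR, DESeq2, length and GC slopes, the replicate block, or without the 18 marked libraries. With olfactory and striatal scores as covariates 1 was called, Fgf13 for lithium in HT (-0.104), and leaving out single libraries gave 0 to 1 calls there. Uncalled estimates of these 5 genes changed sign as follows, and the cause was not tested.

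Without the 18 libraries the values were -0.0104 for Fgf11, fluoxetine in WT; -0.0114 for Fgf11, genotype averaged; -0.0027 for Fgf11, genotype under vehicle; 0.0203 for Fgf12, lithium in WT. For Fgf13 they were 0.061 for fluoxetine in HT, 0.0331 for its interaction with genotype and 0.012 for genotype under fluoxetine. For Nalcn they were -0.0319 for fluoxetine in WT, 0.051 for the lithium interaction, 0.0063 for genotype under lithium and -0.0102 for lithium in WT. With length and GC slopes lithium gave -0.002 (HT) and -0.0236 (WT) for Fgf11, 0.0066 (WT) for Fgf13, -0.0451 (HT) for Fgf14, and -0.0369 (HT) and -0.0056 (WT) for Nalcn. Those slopes also gave 0.0115 for Fgf12 in females against males, and for Fgf13 0.0018 (fluoxetine in HT), -0.0015 (fluoxetine in WT) and 0.0032 (interaction). For Nalcn genotype they gave 0.0023 (averaged) and 0.0119 (vehicle). With the 2 scores as covariates the values were -0.0047 for Fgf11 genotype averaged, 0.0077 (fluoxetine interaction), 0.0199 (genotype under fluoxetine) and 0.029 (lithium in WT) for Fgf12, 0.0062 for Fgf13 genotype under vehicle and 0.0099 for Fgf14 fluoxetine in WT. voom gave 0.0147 (lithium interaction), 0.0036 (genotype under lithium) and -0.0111 (genotype under vehicle) for Fgf12, -0.0052 for Fgf13 fluoxetine in WT, and for Nalcn -0.0114 (fluoxetine in WT), 2e-04 (genotype averaged) and 0.0286 (lithium interaction). The Nalcn lithium interaction was 0.0022 in DESeq2, 0.0031 in edgeR and 0.0041 with TMM, which gave -0.001 for Fgf12 genotype under vehicle.

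Leaving out single libraries, Fgf11 ran from -0.0578 to 0.0245 (fluoxetine in HT), -0.0089 to 0.0186 (genotype averaged), -0.0004 to 0.0557 (lithium interaction) and -0.0042 to 0.0452 (genotype under vehicle). Fgf12 ran from -0.0442 to 0.0095 and -0.0437 to 0.008 (fluoxetine and lithium interactions), -0.0383 to 0.0124, -0.0335 to 0.0077 and -0.0247 to 0.027 (genotype under fluoxetine, lithium and vehicle) and -0.0335 to 0.0027 (lithium in WT). Fgf13 ran from -0.026 to 0.0177 and -0.013 to 0.0369 (fluoxetine in HT and WT), -0.0412 to 0.0087 (fluoxetine interaction) and -0.0343 to 0.0021 (genotype under vehicle). Fgf14 ran from -0.0351 to 0.0276 (fluoxetine in WT) and -0.0144 to 0.038 (lithium in HT). Nalcn ran from -0.0141 to 0.0286 (fluoxetine in WT), -0.0097 to 0.0051 (genotype averaged) and -0.0261 to 0.0163 (lithium interaction).

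With the replicate number as a block Fgf13 for lithium in HT was -0.105 (limma adjusted p = 0.104), no call among the named genes changed, and 2 uncalled estimates changed sign, to -0.0019 (Fgf11, genotype averaged) and -0.0024 (Fgf12, genotype under vehicle). Same-numbered libraries of different groups did not deviate together (median r 0.011 over 292 pairs, 65 of them over 0.1), so the numbers were not taken as pairs. Over all genes, calls for lithium in HT and WT were 439 and 450 with length and GC slopes, 561 and 223 without the 18 libraries, and 1560 and 1016 in the fit reported. Unc80 lost its call in 12 of 56 fits without 1 library, Calm2 in 11, Mapk8ip2 in 6 and Unc79 in 0. Unc80 and Calm2 also lost it with only the groups compared (limma adjusted p = 0.0796 and 0.0799). Among partners, the estimates for lithium in WT changed sign in 6 of 12 alternatives for Calm2 (-0.0206 to 0.0441) and in 3 of 12 for Unc80 (-0.0511 to 0.0282). Each of the 5 genes had over 500 normalized counts in every library, and the share of counting error in their spread was not measured.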
